A study of Mus musculus with 9 samples.

Results

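Gene expression in CD8+ T cells given interleukin-15 (IL-15) at 500 nM for 24 h was compared with that in cells given interleukin-2 (IL-2) at the same dose and time. The comparison rests on 2 of the 9 RNA sequencing libraries in the series, 1 on each side. Every library came from splenic CD8+ T cells of female C57BL/6 mice aged 6 weeks, and no genotype other than that strain was given. The remaining libraries were untreated cells and cells given either cytokine at 1 nM for 4 or 24 h or at 500 nM for 4 h. RNA of 3 identically treated samples was pooled for each library, so that no condition had a second library. Differences between the 2 libraries are therefore described with counting intervals and were not tested against biological spread.

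IL-2 and IL-15 are cytokines of one family that share the signalling receptor chains IL-2Rβ (Il2rb) and the common γ chain (Il2rg). Both chains pass the signal to JAK kinases and the transcription factor STAT5, which drives T cell growth, survival and effector genes. Each cytokine also has a private α chain, Il2ra for IL-2 and Il15ra for IL-15, and IL-15 is usually shown to the T cell by a neighbouring cell that carries its α chain. The series asks how these cytokines come to act differently. The pair at the high dose and late time shows where the libraries differ after a day of strong stimulation.

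With 1 transcript taken per gene, the IL-15 library held 33576577 counts and the IL-2 library 35968467, in a series that ran from 27158143 to 48799962. Levels are given as CPM, the read count of a gene scaled to a common library size with a correction for composition. A gene was called higher or lower where its level differed at least 2-fold, the 95% counting interval of the ratio excluded 1, and the higher library had at least 20 counts. The reads passed through PCR and carry no molecular identifiers, so these intervals and the floors used for 0 counts speak of counting error only. The co-receptor genes Cd8a and Cd8b1, which fit the label, measured 882 and 1041 CPM with IL-2 and 970 and 1144 CPM with IL-15. Cd4 measured 0.223 CPM with IL-2 and 1.64 CPM with IL-15. Genes that mark other cell types also had reads and are given below. Of 17 T cell receptor and co-receptor genes, 16 had enough counts and 0 were called. With 7.56% of all genes called, that number says little about them.

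The promoters of Ifng and Cish are shown first because these genes stand for a large and a small difference between the libraries. Ifng, which encodes interferon-γ, was the most different of the well-counted immune genes, and Cish, which encodes a STAT5-induced feedback inhibitor, was nearly level. Each stretch holds 250 bases before the annotated start and 20 bases from it, from RefSeq on GRCm38.p6, plus strand. Ifng lies at chr10:118440796-118441065 and Cish at chr9:107296409-107296678. Capitals mark the motif TTCNNNGAA, the core that STAT5 is known to bind, which reads the same on both strands as a pattern.

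Ifng: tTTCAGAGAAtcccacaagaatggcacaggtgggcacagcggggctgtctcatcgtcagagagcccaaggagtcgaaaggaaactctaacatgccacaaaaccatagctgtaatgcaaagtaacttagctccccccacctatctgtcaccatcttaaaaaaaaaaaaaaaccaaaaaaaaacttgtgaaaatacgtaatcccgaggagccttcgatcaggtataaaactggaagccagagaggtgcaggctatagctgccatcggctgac

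Cish: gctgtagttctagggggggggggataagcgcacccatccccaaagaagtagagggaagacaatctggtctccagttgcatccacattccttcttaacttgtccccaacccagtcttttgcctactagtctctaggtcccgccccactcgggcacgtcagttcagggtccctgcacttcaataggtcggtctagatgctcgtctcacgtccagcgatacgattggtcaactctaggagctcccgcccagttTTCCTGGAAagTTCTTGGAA

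The Ifng window held 1 match, at its far upstream end, and the Cish window held 2, both at the start itself. Among 32851 promoter windows of 300 bases, 8.30% held at least 1 match and 0.457% held 2 or more. A match describes the letters and is no evidence of binding.

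The pair was close across the transcriptome. Of 11330 genes with enough counts, 446 (3.94%) were higher with IL-15 and 410 (3.62%) were lower, together 7.56%. Low counts carried most of these calls. Genes with 20 to 99 counts gave 637 of the 856 calls and were called in 37.6% of cases, against 4.79% of genes with 100 to 999 counts. Of 5315 genes with 1000 or more counts, only 12 (0.226%) were called. The counting interval by itself excluded equality for 61.8% of genes, so at this depth it separates few genes from the rest, and the size of the difference carries the call.

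**Figure D1:**
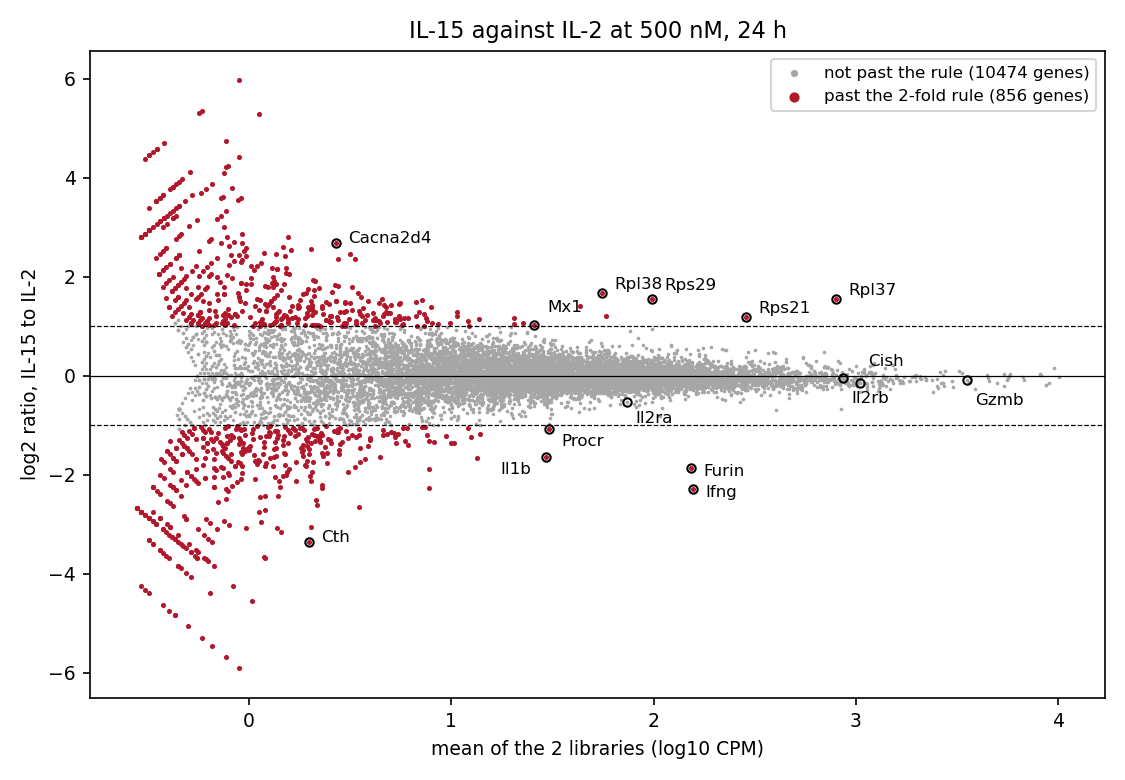
Log2 ratio of IL-15 to IL-2 at 500 nM and 24 h (y axis) against the mean level of each gene in log10 CPM (x axis), 1 point per gene with enough counts, with red points past the 2-fold rule and dashed lines at 2-fold. The red points crowd at low levels, and above 100 CPM only Ifng, Furin and the ribosomal protein genes Rps21 and Rpl37 leave the band.

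The other pairs of IL-15 and IL-2 in the series share no library with this one and held more calls: 15.5% of genes in the 24 h pair at 1 nM, 13.5% in the 4 h pair at 500 nM and 14% in the 4 h pair at 1 nM. Over 8295 genes with at least 100 counts in every library, the SD of the log2 ratio was 0.27 here, against 0.43 in the 24 h pair at 1 nM, 0.41 in the 4 h pair at 500 nM and 0.42 in the 4 h pair at 1 nM. Within 1.25-fold of each other lay 81.9% of these genes here and 59.6% to 61.9% in the other pairs. Calls among them numbered 53 here, or 0.639%, and took 2.44% to 2.97% in the other pairs. No pair has a second library, so whether the pairs differ from each other beyond library spread was not tested.

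**Figure D2:**
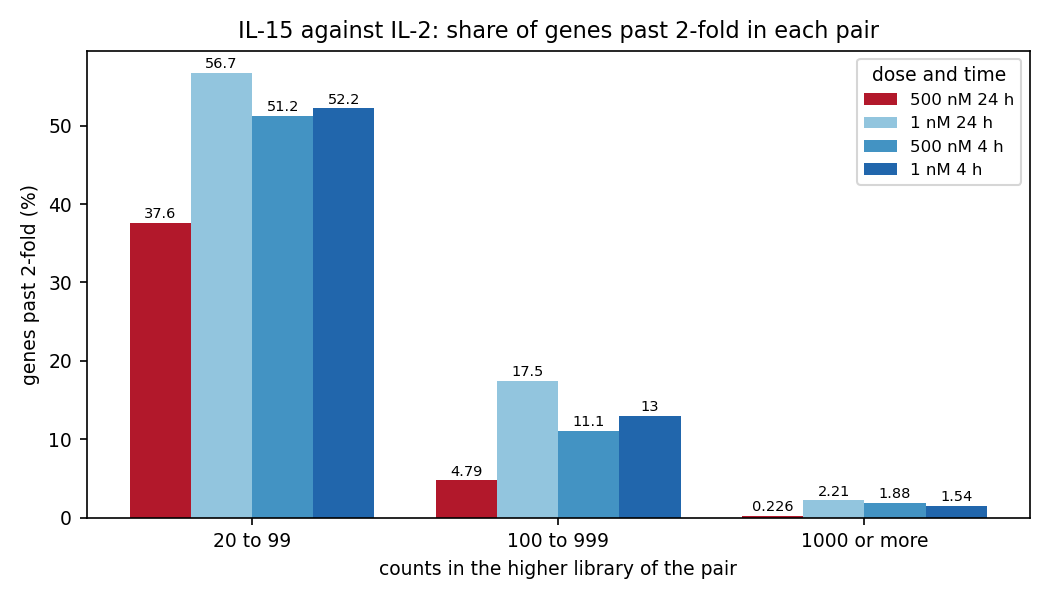
Percent of genes past the 2-fold rule (y axis) in each pair of IL-15 and IL-2 libraries, by the counts in the higher library (x axis), with the value printed over each bar. The 500 nM, 24 h pair is lowest in every count class, at 37.6%, 4.79% and 0.226%.

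The largest well-counted difference was in Ifng. It measured 261 CPM with IL-2 and 53.6 CPM with IL-15, so that IL-2 gave 4.86 times the IL-15 level (counting interval 4.62 to 5.11). Untreated cells measured 1.01 CPM, and both libraries stood far above that, 257-fold with IL-2 and 52.9-fold with IL-15. The order of the cytokines was not the same throughout the series. At 500 nM and 4 h Ifng measured 93.2 CPM with IL-2 and 330 CPM with IL-15, a log2 ratio of 1.83 in the other direction. At 1 nM it measured 8.89 and 1.62 CPM at 24 h, and 1.92 and 0.832 CPM at 4 h, with IL-2 and IL-15 in that order. IL-2 was thus above IL-15 in 3 of the 4 pairs.

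Most other T cell cytokine genes had ratios on the same side. Of 13 with enough counts, 3 were lower with IL-15, where 3.62% of all genes were, and 0 were higher: Ifng, Csf2, which encodes the growth factor GM-CSF, and Il10, an anti-inflammatory cytokine. Csf2 had 96 counts with IL-2 and 35 with IL-15, and Il10 had 84 and 15, a log2 ratio of −2.42 beside −2.28 for Ifng. Csf2 and Il10 thus fall among genes with 20 to 99 counts, of which 315 of 1693 were called lower. The ratio was below 1 for 11 of the 13, with a list median log2 ratio of −0.23, where all genes split near evenly (49.2% above 1). Lta, a lymphotoxin gene, measured 1421 CPM with IL-2 and 1153 CPM with IL-15, and Lif measured 563 and 462 CPM. Tnf measured 128 and 117 CPM. None of these 3 reached the 2-fold rule.

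Furin was also lower with IL-15 at a high level. It encodes a protease that cuts proproteins, among them the precursor of TGF-β, into their active forms. Furin measured 241 CPM with IL-2 and 66.5 CPM with IL-15, a ratio of 3.63 (3.46 to 3.80) in favour of IL-2, and 65.6 CPM in untreated cells. The IL-15 library was therefore at the untreated level. At 500 nM and 4 h both cytokines had stood above it, at 231 CPM with IL-2 and 301 CPM with IL-15. At 1 nM the values lay between 91.6 and 106 CPM. Fes, a tyrosine kinase gene that adjoins Furin on chromosome 7, showed a like ratio at a lower level, 12.2 CPM with IL-2 and 3.30 CPM with IL-15. Whether reads of one were counted in the other was not tested.

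The remaining well-counted genes that were lower with IL-15 were Il1b and Procr. Il1b, an inflammatory cytokine mostly of myeloid cells, measured 44.8 CPM with IL-2 and 14.3 CPM with IL-15. In bulk RNA, fewer cells of a type and less RNA per cell cannot be told apart. Across the other libraries Il1b ran from 1.77 to 48.0 CPM. Procr, the receptor of protein C, measured 41.3 and 19.6 CPM, inside the range of 6.35 to 64.8 CPM of the other libraries. The choice of 1000 counts for these genes was made after their values were seen.

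**Figure D3:**
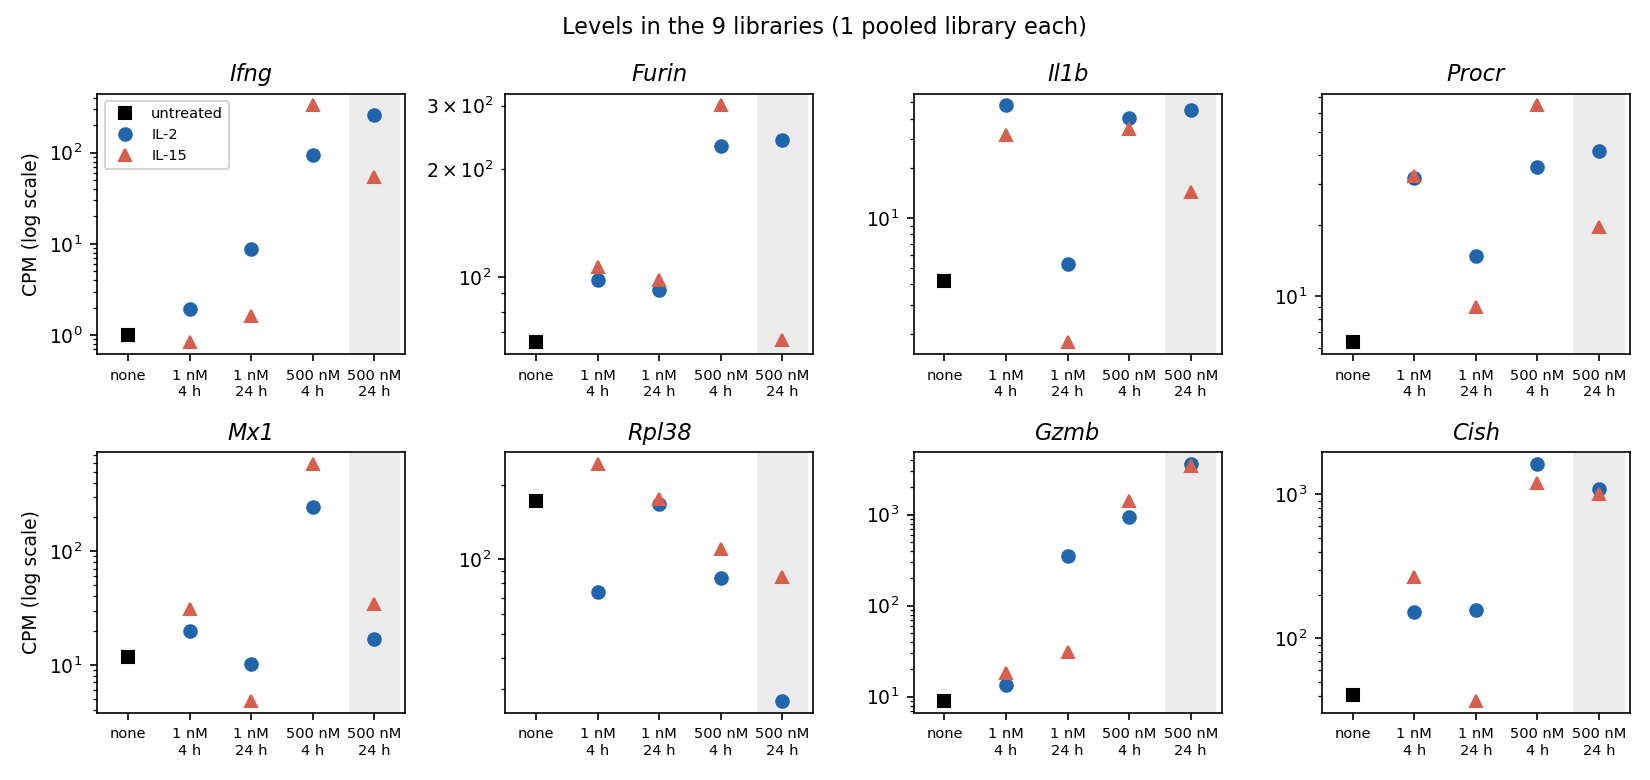
CPM on a log scale (y axis) of 8 genes in each of the 9 libraries (x axis, dose and time), with squares for untreated, circles for IL-2 and triangles for IL-15, and the 500 nM, 24 h pair shaded. Ifng, Furin, Il1b and Procr lie lower with IL-15 in the shaded pair, Mx1 and Rpl38 higher, and Gzmb and Cish nearly level.

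Of the 4 receptor chains for IL-2 and IL-15, 0 were called, and with 7.56% of all genes called that number says nothing particular about them. Il2ra, which makes the high-affinity IL-2 receptor, measured 87.4 CPM with IL-2 and 60.6 CPM with IL-15, or 0.694 of the IL-2 level (0.656 to 0.734), and 1.67 CPM untreated. Both values lie above every other library, which reached 45.5 CPM at most. Il2rb measured 877 and 857 CPM and Il2rg 312 and 342 CPM, with IL-2 and IL-15 in that order. Il15ra measured 35.5 and 39.6 CPM.

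The JAK-STAT genes and their feedback inhibitors gave 0 calls in 17, where 7.56% of all genes were called. Cish measured 1097 CPM with IL-2 and 998 CPM with IL-15, against 40.1 CPM untreated. Socs1 measured 179 and 187 CPM, and Socs2 65.6 and 60.4 CPM. Pim2, a survival kinase gene induced by STAT5, had the ratio furthest from 1 in the list, 1037 CPM with IL-2 and 649 CPM with IL-15. Its log2 ratio was −0.68, and Pim1 of the same list went the other way at 0.51. The ratio was above 1 for 10 of the 17, with a median log2 ratio of 0.06. Of 19 other cytokine receptor genes, 1 was lower with IL-15: Il1rl1, a receptor for IL-33, with 40 counts with IL-2 and 0 with IL-15. Its ratio was 12.7-fold with 3 counts put in place of the 0. Il18r1 measured 17.9 and 9.67 CPM and missed the 2-fold rule.

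Granzymes are the proteases, and perforin the pore former, with which CD8+ T cells kill targets. Of 17 with enough counts, 1 was lower with IL-15 (Gzmf, 28 counts against 7) and 0 were higher, a share near the 7.56% of all genes. Gzmb measured 3623 CPM with IL-2 and 3437 CPM with IL-15, 403-fold and 382-fold above the 9.00 CPM of untreated cells. Per length it was also the most abundant of the list, at 1822 and 1761 RPKM in the authors' deposited values. Prf1, at 77.7 and 83.3 CPM, stood at 27.0 and 29.4 RPKM.

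The minor granzymes of the Gzmb cluster were all somewhat lower with IL-15 but, apart from Gzmf, within 2-fold. Gzmc measured 99.0 CPM with IL-2 and 64.5 CPM with IL-15, and 0 counts untreated. Gzmd had 64 and 33 counts, Gzme 144 and 93, and Gzmg 95 and 71, with an interval of 0.568 to 1.08 for the ratio of the last. These copies resemble each other in sequence, so the split of reads between them is uncertain. Outside that cluster Gzmm ran the other way, at 7.47 CPM with IL-2 and 12.2 CPM with IL-15, and Gzma measured 4.54 and 6.52 CPM. Gzmk had 15 and 10 counts.

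The remaining members of the cytotoxic list lay within 1.5-fold of equality. Fasl, the death ligand, measured 19.0 CPM with IL-2 and 20.1 CPM with IL-15, and Nkg7, a granule protein, measured 244 and 251 CPM. Srgn, the granule proteoglycan, measured 149 and 161 CPM, and Ctsw, a protease of killer cells, 334 and 463 CPM. Serpinb9, which shields the cell from its own granzyme B, measured 96.2 and 68.0 CPM. Lamp1 measured 83.9 and 77.1 CPM, Rab27a 7.55 and 8.39 CPM and Unc13d 118 and 123 CPM.

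Antiviral interferon-stimulated genes leaned together toward IL-15. Of 27, 1 was called higher, Mx1, which encodes an antiviral GTPase, and 0 lower. That share is near the 3.94% of all genes called higher. Mx1 measured 16.9 CPM with IL-2 and 34.6 CPM with IL-15, a ratio of 2.05 (1.85 to 2.26). The ratio was above 1 for 25 of 27 and its interval above 1 for 24, against 30.2% of all genes, and the median log2 ratio was 0.38. Rsad2 measured 36.9 and 59.2 CPM and Irf7, a transcription factor of the pathway, 579 and 812 CPM. Summed, the list measured 3195 CPM with IL-2 and 4205 CPM with IL-15. The list median was 1.09 in the 4 h pair at 500 nM and 0.14 in the 4 h pair at 1 nM. In the 24 h pair at 1 nM it was −0.55, so the lean was not shared by all pairs.

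The interferon-inducible GTPases, which act against intracellular microbes and answer to interferon-γ, gave 0 calls in 13, with a median of 0.09. Of all genes, 7.56% were called. Igtp measured 2542 CPM with IL-2 and 2697 CPM with IL-15, and Gbp2 999 and 875 CPM. The same list had 12 of 13 members called at 1 nM and 24 h, where its median was −1.87, and 1 and 0 of 13 in the 4 h pairs at 500 nM and 1 nM. In the 24 h pair at 500 nM the 4.86-fold gap in Ifng thus stood beside GTPase genes within 2-fold.

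DNA replication genes gave 0 calls in 32 and mitosis genes 0 in 31, beside 0.226% called among all genes with 1000 or more counts and 4.79% among those with 100 to 999. Of the replication genes, 12 of 32 were called in the 24 h pair at 1 nM, 6 of 32 in the 4 h pair at 500 nM and 3 of 31 in the 4 h pair at 1 nM. Of the mitosis genes these numbers were 20 of 30, 4 of 31 and 7 of 29. Replication genes summed to 9148 CPM with IL-2 and 8919 CPM with IL-15, against 1892 CPM untreated. Mitosis genes summed to 2328 and 2345 CPM, against 312 CPM untreated. Glycolysis (18 genes), amino acid transport (20), cholesterol and fatty acid synthesis (25), ribosome biogenesis (25), respiratory chain (28), ER chaperones (20) and heat shock chaperones (14) also gave 0 calls each. Their medians lay between −0.16 and −0.04, so most members stood slightly below the IL-2 level. Hk2, a glucose-trapping enzyme, measured 23.6 CPM with IL-2 and 14.4 CPM with IL-15. Its log2 ratio of −0.71 was the lowest of the glycolysis genes, and Pfkm had the highest, 0.66. Myc, the growth regulator, measured 766 and 663 CPM.

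Of 22 effector and memory transcription factors, 2 were lower with IL-15, where 3.62% of all genes were. They were Batf3, at 13.2 and 5.67 CPM, and Zeb2, with 40 and 15 counts. Tbx21, which encodes T-bet, a driver of Ifng, measured 135 CPM with IL-2 and 86.4 CPM with IL-15, or 0.640 of the IL-2 level (0.611 to 0.670), and was not called. Eomes, the related factor, measured 234 and 251 CPM. The 16 homing genes gave 0 calls, where 7.56% of all genes were called. Their ratios leaned toward IL-15, above 1 for 13 of 16 with a median log2 ratio of 0.18. The interval lay above 1 for 12, against 30.2% of all genes, and below 1 for 1. The egress receptor gene S1pr1 measured 153 and 205 CPM against 1088 CPM untreated, and Il7r 28.6 and 27.8 CPM against 148 CPM.

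Few surface receptor and cell cycle regulators were called, all at low levels. Over all genes 7.56% were called, and 37.6% of those with 20 to 99 counts, so these numbers say little about the lists. Of 19 costimulatory and inhibitory receptors, Tigit was higher (3.34 CPM with IL-2, 7.16 CPM with IL-15) and Ctla4 lower (3.76 and 1.72 CPM), both of them inhibitory receptors. Of 12 NK receptor genes, 2 were higher, Klra7 (50 and 97 counts) and Klri2 (12 and 28). Of 19 G1 genes, Cdkn1b, the inhibitor p27, was lower with 100 counts against 31. Bok was the only call among 18 BCL-2 family genes, with 32 and 7 counts, and Bcl2 itself measured 433 and 432 CPM. Of 16 chemokine genes, 2 were higher: Ccl9 with 16 and 46 counts and Cx3cr1 with 0 and 26. The Cx3cr1 ratio was 9.09-fold with 3 counts put in place of the 0. Nr4a3 was the only call among 22 immediate early genes, with 0 counts with IL-2 and 20 with IL-15. Its ratio, formed in the same way, was 6.99-fold.

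**Figure D4:**
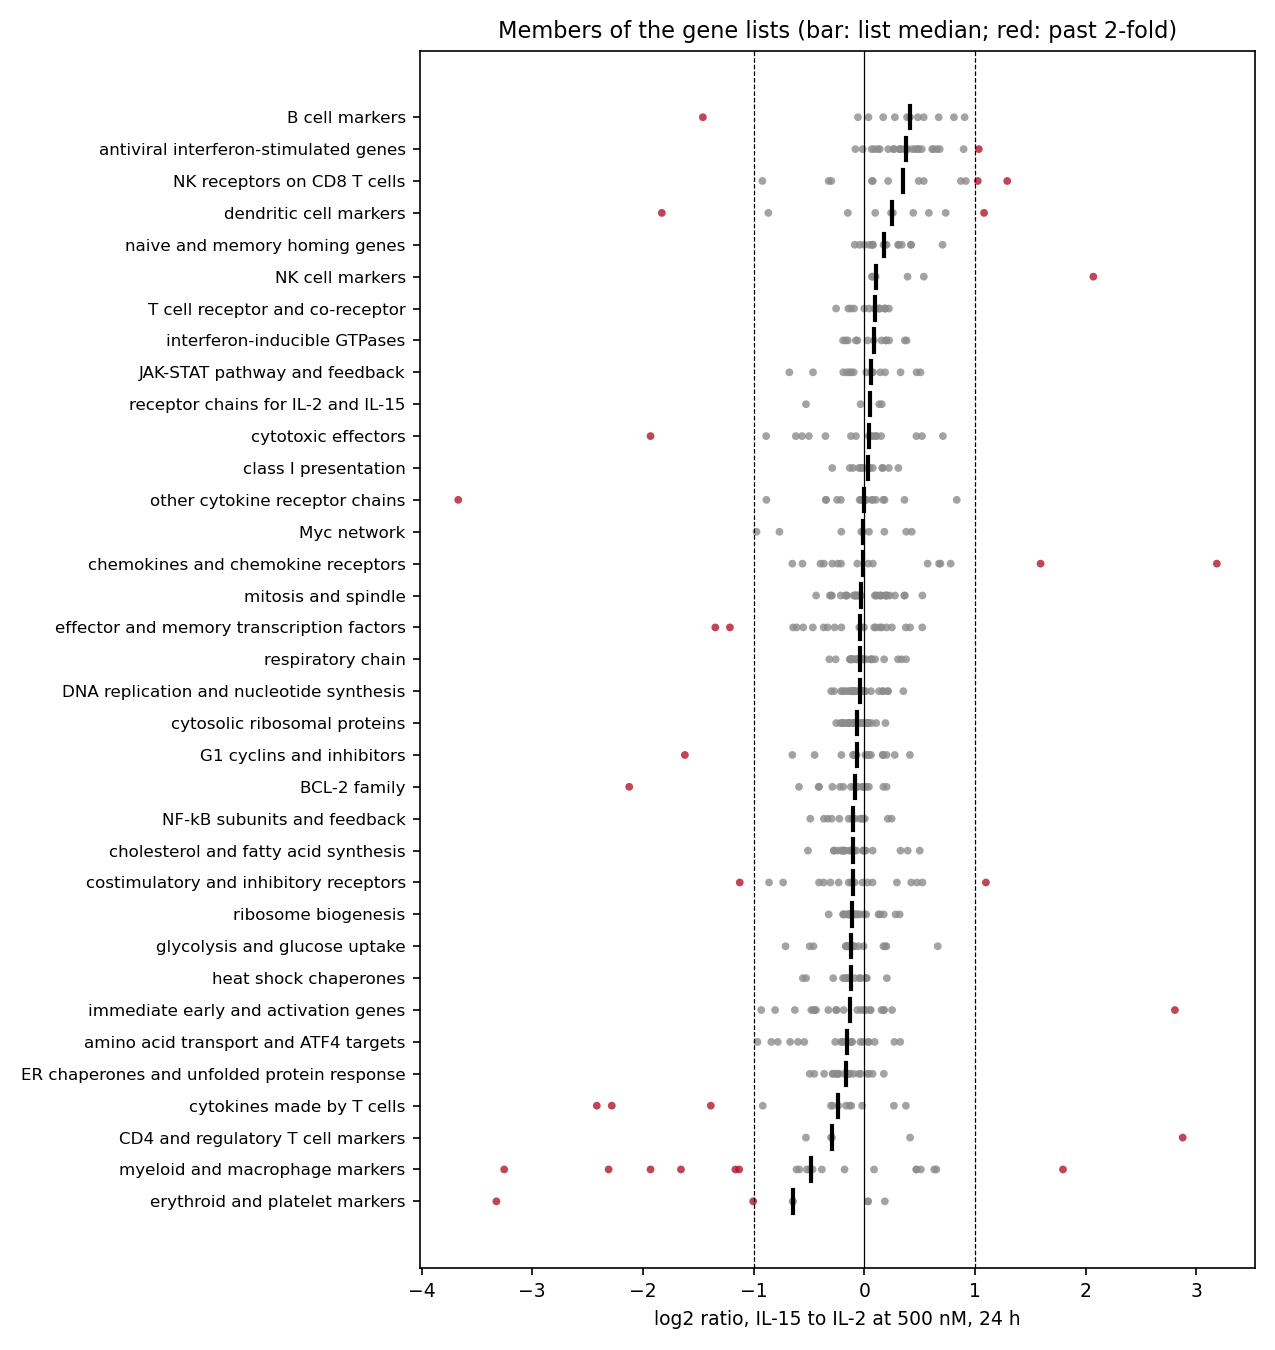
Log2 ratio of IL-15 to IL-2 at 500 nM and 24 h (x axis) for every member with enough counts of 35 gene lists (y axis), ordered by list median, with black bars at medians, red points for members past the 2-fold rule and dashed lines at 2-fold. Across the lists 31 of 605 distinct members are red, and 18 lists have none.

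Over all 35 lists, 31 of 605 distinct members were called, beside 7.56% of all genes. Of these members, 10 had at least 100 counts in the higher library.

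Some short ribosomal protein genes were higher with IL-15, while the group as a whole was not. The gene list of 30 cytosolic ribosomal proteins gave 0 calls, with a median log2 ratio of −0.06. All 77 cytosolic ribosomal protein genes with enough counts were looked at after the data were seen. Of these 77, 7 were higher and 0 lower, where 3.94% of all genes were higher and 3.62% lower. Their median log2 ratio was −0.03. Of the 15 whose counted exons are under 500 bases, 6 were higher and the median was 0.54. Of the 62 longer ones, 1 was higher and the median was −0.04. Rpl38 measured 26.7 CPM with IL-2 and 84.9 CPM with IL-15, Rps29 49.7 and 147 CPM, and Rpl37 408 and 1191 CPM. In all 7 the IL-2 library was the lowest of the 9. Rpl38, for example, ran from 73.4 to 243 CPM in the other 7 libraries, which hold the IL-15 value.

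Other short genes mostly had ratios near 1. Of 35 other genes under 500 bases with at least 1000 counts, 1 was higher and their median was −0.09. Of all genes with 1000 or more counts, 0.226% were called. The 1 higher gene was Bola2, at 34.9 CPM with IL-2 and 80.9 CPM with IL-15. The part of fragment size selection or of pseudogene copies in the ribosomal values was not tested. All ribosomal protein genes together summed to 74172 CPM with IL-2 and 72724 CPM with IL-15, below the 103250 to 149911 CPM of the other libraries. The last of the 12 well-counted calls, Zfp783, measured 14.6 and 30.5 CPM, against 29.9 CPM untreated.

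**Figure D5:**
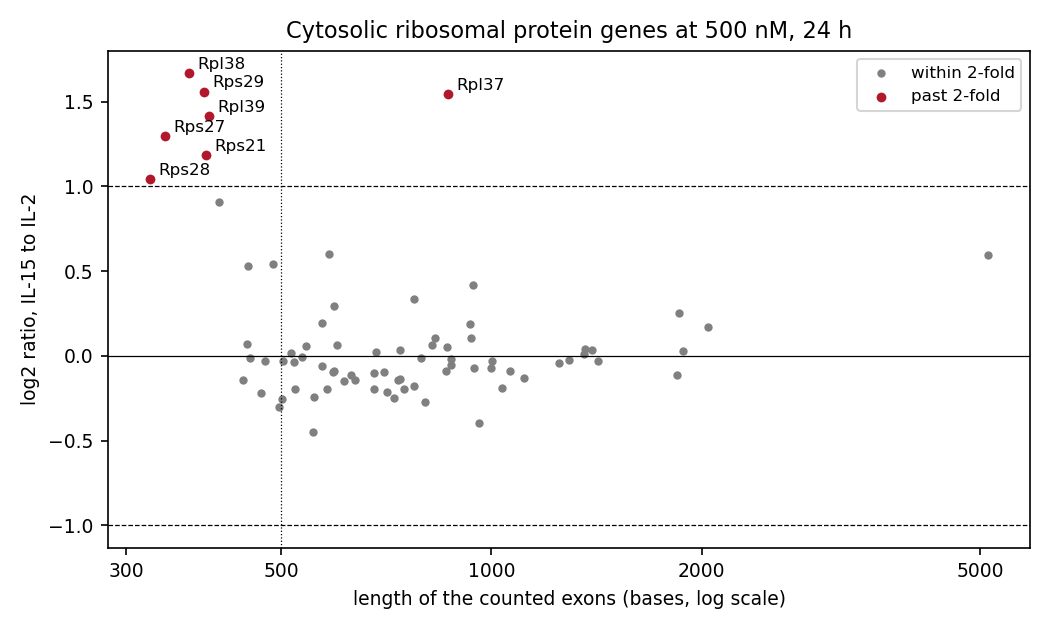
Log2 ratio of IL-15 to IL-2 at 500 nM and 24 h (y axis) of 77 cytosolic ribosomal protein genes against the length of their counted exons in bases (x axis, log scale), with red points past the 2-fold rule, dashed lines at 2-fold and a dotted line at 500 bases. Of the 7 red points, 6 lie left of the dotted line and Rpl37 lies right of it.

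Besides Ifng, Furin and Fes, which are among the 15 lowest ratios of genes with at least 100 counts, the genes with the most extreme ratios were of low level. Lower with IL-15 were Cth, an enzyme of cysteine synthesis, with 129 counts in the IL-2 library and 12 in the IL-15 library (10.3-fold, 5.67 to 20.4), Igsf6 with 130 and 15, and Rgl1 with 216 and 33. The prostaglandin synthesis genes Ptgs2 and Ptges were both lower, with 460 and 91 counts and 136 and 27 counts, and both had 0 counts in untreated cells. B3gnt7, Ankrd57, Pdgfa, Arvcf, Cpd, Ccdc40 and Cd14 followed, between 3.81-fold and 6.08-fold.

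Higher with IL-15 were Cacna2d4, a calcium channel subunit, with 26 counts in the IL-2 library and 160 in the IL-15 library (6.45-fold, 4.25 to 10.2), Fnip2 with 21 and 119, and Rhbdl1 with 35 and 184. Csf1, the growth factor of macrophages, had 39 and 192 counts and stood at 1.70 CPM untreated. Apobec2, Sh2d5, Trim45, Cdh1, Rab30, C1qb, Ell3, Gnb5, Lsr, S100a4 and Dlg5 followed, between 3.20-fold and 5.18-fold. Levels of these genes lay between 3.01 and 5.61 CPM with IL-15.

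The genes called here were followed in the other pairs, where 15.5%, 13.5% and 14% of all genes were called in either direction. Of 219 called with at least 100 counts, 124 were higher and 95 lower. In the 24 h pair at 1 nM, the first of these, 31 of 218 with enough counts were past 2-fold in the same direction and 19 in the opposite one. In the 4 h pair at 500 nM these numbers were 26 and 30 of 212, and in that at 1 nM 36 and 14 of 205. None was past 2-fold in the same direction in all 4 pairs. The calls with at least 100 counts that were shared in direction numbered 21, 17 and 23, which is 9.59%, 7.76% and 10.5% of the 219 and 2.46%, 2.85% and 3.45% of those pairs' own calls.

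The 219 genes were chosen for a difference between the libraries of this pair, so extreme values in either are partly built in. The IL-2 library lay outside the range of the 7 libraries not in the pair for 124 of the 219 genes, and the IL-15 library for 96. Of the 124 higher with IL-15, 78 had their lowest value of all 9 libraries in the IL-2 library and 21 their highest in the IL-15 library. Of the 95 lower with IL-15, 39 had their lowest value of all in the IL-15 library and 36 their highest in the IL-2 library.

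Markers of other cell types were also measured. Of 20 myeloid and macrophage markers with enough counts, 6 were lower with IL-15 and 1 higher, with a median of −0.48. Of the 7 called markers, 4 had under 100 counts, a range in which 37.6% of all genes were called. Marco, a scavenger receptor of splenic macrophages, measured 20.5 CPM with IL-2 and 6.49 CPM with IL-15, and Cd14 4.91 and 1.29 CPM. Csf1r, Csf3r, Slc40a1 and Gpnmb had at most 87 counts. C1qb, a complement gene, was higher, at 1.45 and 5.03 CPM. The list summed to 278 and 267 CPM, against 4238 CPM untreated and 600 to 2850 CPM in the other treated libraries, and Itgam, Mpo, S100a8, S100a9 and Hmox1 were at 0 in both. The part of these cells in the values of Il1b, Cd14, Ptgs2 and Csf1 was not tested.

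B cell markers summed to 291 CPM with IL-2 and 357 CPM with IL-15. Of 13, 1 was lower (Cr2, 49 and 17 counts), and 11 had a ratio above 1, with a median of 0.41. Dendritic cell markers summed to 574 CPM with IL-2 and 623 CPM with IL-15, against 2851 CPM untreated. Of 10 with enough counts, Siglech was higher and Flt3 lower. Of 7 NK cell markers Ncr1 was higher, and of 5 CD4 and regulatory T cell markers Cd4 was higher. Of 7 erythroid and platelet markers Klf1 and Itga2b were lower. Cd4 had 8 counts with IL-2 and 56 with IL-15. Over all genes 7.56% were called, and 37.6% of those with 20 to 99 counts. Whether the share of any of these cell types differed was not tested.

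Against the untreated library both cytokines gave departures of like size. With IL-15, 2196 genes were higher and 2362 lower of 11792, together 38.7%, and with IL-2, 2244 and 2490 of 11809, together 40.1%. Both comparisons use the same untreated library.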

How the data were processed

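Total RNA of splenic CD8+ T cells was sequenced on an Illumina instrument after several rounds of PCR, per the labels' protocols. The submitters' processing notes name CASAVA 1.8, Bowtie 0.12.4 and the build mm8. No source used here states strand use or how reads that map to several places were handled. The authors' deposited files hold unnormalized counts for 24373 RefSeq transcripts, which carry 20418 gene symbols, and, per the file headers, RPKM values, used here only to compare levels between genes.

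For 2673 symbols with several transcripts the one with the highest mean count over the 9 libraries was used. Libraries were scaled by TMM (edgeR 4.0.16, R 4.3.3) over genes kept by filterByExpr (minimum count 10, total 15). Ratios have exact conditional binomial 95% intervals (scipy 1.17.1), and 0 was replaced by 3 counts. The rule was also run on simulated counts that held counting error alone. That run cannot show how the rule fares against spread between libraries.

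Named genes are the 15 highest and 15 lowest ratios among called genes with at least 100 counts and a standard symbol, up to 5 such members per list by size, and all receptor chains and cytotoxic genes. Genes with 1000 or more counts and all ribosomal protein genes were added after values were seen. Some genes that the rule names are left out of the text. Of 652 distinct list genes, 647 were measured, 6 by an older symbol. The comparison, members and lists were chosen with earlier results of these data known. Alternatives were other scalings (DESeq2 1.42.0 size factors, upper quartile, totals), filters, folds, an offset and transcript sums. Samples were taken as labelled, and nothing says whether pooled samples came from separate animals.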

Additional observations from a re-analysis of the deposited data

Results flagged for a closer look

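For 6 of the named genes the pair at 500 nM and 24 h and another pair of libraries moved past 2-fold in opposite directions. With 1 library per condition, the difference between pairs was not tested for any of them. Ifng, lower with IL-15 here (log2 ratio −2.28), had a log2 ratio of IL-15 to IL-2 of 1.83 at 500 nM and 4 h. Rab30, higher with IL-15 here (1.81), had −1.35 there too. In the 24 h pair at 1 nM, Ankrd57 had 1.82 (here −2.51), Lsr −1.05 (here 1.73), Mx1 −1.09 (here 1.03) and Tigit −1.59 (here 1.10).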

How the results depend on the processing

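The count of 856 genes past 2-fold (446 higher, 410 lower with IL-15, 31 list members) lay between 748 and 912 under scaling by totals, median of ratios or upper quartile, the sum over transcripts, an offset of 5 counts and no use of the interval. Other scalings moved the median log2 ratio by at most 0.03 and kept 847 to 856 of the 856 calls. With no filter on low counts 1427 genes passed (779 higher, 648 lower), and with at least 100 counts in the higher library 219 (124, 95; 10 list members). A fold of 1.5 gave 1641 (862, 779; 78 list members), a fold of 3 gave 443 (217, 226; 18), and an interval wholly beyond 2-fold 361 (184, 177; 12). Of 1080 values of 216 named genes under alternatives, 22 moved outside the main counting interval. Reversals were counted only for called genes, and 0 were seen. A difference of 2-fold or more leaves little room for one, so that count says little, and sign changes of uncalled genes were not counted. The spread of log2 ratios was 0.20 over genes with at least 500 counts in every library. No paired analysis was possible because each condition has 1 library, and leaving out a replicate could not be done for the same reason. Depth limits the low-count genes: below 100 counts a 2-fold ratio has a wide counting interval, and spread between animals is unknown for every gene.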
